A study of Mus musculus with 12 samples.

Results

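Small nucleolar RNA host genes are long noncoding RNA (lncRNA) genes whose introns hold small nucleolar RNAs (snoRNAs). For 10 such genes, the transcripts were looked up by identifier in the deposited lncRNA table with the GENCODE M21 annotation. The members were Snhg1, Snhg3, Snhg5, Snhg6, Snhg8, Snhg12, Snhg18, Snhg20, Gas5 and Zfas1. The table listed 26 transcripts of 8 of the 10 members, out of 1432 transcripts of 1043 lncRNA genes. Snhg3 and Zfas1 had no listed transcript, so no level is given for them.

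The livers came from male mice (strain label C57BL/8) that were 6 weeks old at the start. The control group (Control, n = 6 mice) was injected intraperitoneally with carbon tetrachloride (CCl4), a solvent that injures hepatocytes and produces fibrosis, and was given distilled water into the stomach every day. The PZH group (n = 6 mice) received the same CCl4 injections and daily Pien Tze Huang (PZH), a herbal traditional Chinese medicine, into the stomach. All 12 mice were killed in the eighth week. No mouse free of CCl4 is in these tables, so each difference is between treated and untreated fibrotic liver. Ribosomal RNA was depleted and strand-specific libraries were sequenced from total RNA of whole liver. In such bulk tissue, fewer cells of a type and less RNA per cell cannot be told apart.

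Most vertebrate snoRNAs are made by splicing the host transcript, debranching the intron and trimming it until a protein-bound core is left. Box C/D snoRNAs guide 2′-O-methylation and box H/ACA snoRNAs guide pseudouridylation, mainly of ribosomal RNA. The spliced host RNA is often poorly translated and short-lived, because ribosomes that meet its early stop codons expose it to nonsense-mediated decay. Many host genes start with a run of pyrimidines (a 5′ terminal oligopyrimidine or TOP tract), which ties their RNA to mTOR signalling and cell growth.

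The 8 listed members held 27 annotated snoRNAs or small Cajal body RNAs (scaRNAs), and each of the 27 lay in an intron of at least 1 listed transcript. Gas5 held 9, Snhg1 held 8, Snhg12 held 4 and Snhg5 held 2. Snhg6, Snhg8, Snhg18 and Snhg20 held 1 each. The snoRNAs themselves were not in the tables, so the values below are levels of host transcripts. In GENCODE M21 (GRCm38) Snhg1 is at chr19:8723475-8726443 (plus strand), Snhg6 at chr1:9941959-9944118 (minus strand), Snhg8 at chr3:123507552-123508404 (minus strand) and Snhg12 at chr4:132308623-132311024 (plus strand). Gas5 is at chr1:161034422-161038539 (plus strand), Snhg5 at chr9:88521050-88522929 (minus strand), Snhg18 at chr15:32240565-32244662 (minus strand) and Snhg20 at chr11:117076008-117078955 (plus strand).

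For 4 hosts 1 product each is shown 5′ to 3′ in DNA letters from the GENCODE M21 transcript sequences. Capitals mark the C box letters TGATGA in the first 20 bases and the D box letters CTGA in the last 15 bases, or the letters ACA placed 3 bases from the end.
Gm25855 in Snhg1, chr19:8723993-8724064, plus strand: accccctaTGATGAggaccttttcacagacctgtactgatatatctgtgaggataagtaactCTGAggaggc
Snord87 in Snhg6, chr1:9942463-9942549, minus strand: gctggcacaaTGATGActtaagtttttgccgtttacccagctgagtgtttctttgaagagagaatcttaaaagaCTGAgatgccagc
Snora24 in Snhg8, chr3:123507937-123508066, minus strand: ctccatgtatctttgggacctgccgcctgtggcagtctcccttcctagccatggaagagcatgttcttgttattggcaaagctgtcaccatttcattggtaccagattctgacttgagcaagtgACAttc
Snord50a in Snhg5, chr9:88521529-88521600, minus strand: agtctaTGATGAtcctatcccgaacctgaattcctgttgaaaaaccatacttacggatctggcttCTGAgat
By these letters on the RNA strand, 17 of the 27 had both C and D box letters, 4 had the ACA letters, 5 had D box letters alone and 1 had neither. Of all 1558 snoRNAs and scaRNAs in the annotation, 19.9% had both box letters and 19.1% had the ACA letters. A match of letters is a description and not a test of the snoRNA class.

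The bases around the transcription start are shown for the members with a RefSeq start window (GRCm38.p6), since many host genes are known for TOP tracts. Each line holds 25 bases before and 25 bases from the start, with the longest unbroken run of C or T between 10 bases before and 20 bases after the start in capitals.
Snhg1 start, chr19:8723462-8723511, plus strand: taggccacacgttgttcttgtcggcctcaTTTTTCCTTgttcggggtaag
Snhg12 start, chr4:132308653-132308702, plus strand: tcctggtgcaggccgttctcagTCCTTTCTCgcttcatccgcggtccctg
Snhg8 start, chr3:123508312-123508361, minus strand: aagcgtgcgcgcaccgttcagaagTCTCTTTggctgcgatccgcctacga
Gas5-224 start, chr1:161035141-161035190, plus strand: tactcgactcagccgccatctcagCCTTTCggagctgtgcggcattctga
Snhg5 start, chr9:88522873-88522922, minus strand: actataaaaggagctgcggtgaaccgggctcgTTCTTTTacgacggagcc
Snhg18 start, chr15:32244638-32244687, minus strand: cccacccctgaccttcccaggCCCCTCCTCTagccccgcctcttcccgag
Snhg20 start, chr11:117076758-117076807, plus strand: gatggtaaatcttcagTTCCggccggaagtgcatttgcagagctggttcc
The run was 9 bases in Snhg1 and in Snhg12, and 7.11% of 32851 RefSeq windows had a run at least that long on the transcribed strand. The Snhg1 window lies 12 bases from the start of Snhg1-211 and 518 bases from that of Snhg1-207, the transcript that carried most of the Snhg1 level, so it does not show the annotated start of Snhg1-207. The run was 10 bases in Snhg18 (4.77% of windows), 7 bases in Snhg8 and Snhg5 (17.9%), 6 bases at this Gas5 start (28.7%) and 4 bases in Snhg20 (68.6%). A second RefSeq start of Gas5, 6 bases from that of Gas5-217, had a run of 3 bases (88.3%). The run spanned the RefSeq start in Snhg12, Snhg8 and Snhg18 and at the Gas5 start shown. In Snhg1 and Snhg5 it began after the start, and in Snhg20 and at the second Gas5 start it ended before it. A TOP tract begins at the first base of the RNA, and whether any of these runs is one was not tested. Snhg6 had no window. The longest run was that of Snhg18. Whether the length of a run goes with the difference between the groups was not tested.

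Levels are given as FPKM, the fragments of a transcript per kilobase of its length and of sequencing depth, as the authors deposited them. The value of a gene is the sum of the FPKM of its listed transcripts. Differences are PZH minus Control on log2(FPKM + 1), given with a 95% interval. Adding 1 understates the change of genes at low FPKM, most of all near or below 1 FPKM. They were tested with limma, a linear model that shares information on variance across genes, and p was adjusted by the Benjamini-Hochberg method over all genes or transcripts of the table. A value was called where adjusted p was under 0.05.

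In the PZH group 4 of the 8 member gene sums fell (Snhg1, Snhg6, Snhg12 and Snhg8) and 0 rose. Among all 1043 lncRNA genes 10.7% were called lower and 14.4% higher. All 8 members had a difference below 0, against 47% of all lncRNA genes, although Snhg18 turned to 0.09 under the median-ratio scaling described below. The median difference was -0.42 over the 8 members and 0.01 over all lncRNA genes. Summed over the 8 members, PZH mice had 36.8 ± 7.35 FPKM and control mice 56.5 ± 6.63 (SD, n = 6 each). The PZH mice ran from 30.6 to 50.5 and the control mice from 45.1 to 64.2, with only PZH 1 inside the control range. In 3 of the 8 members (Snhg1, Snhg6 and Snhg8) every PZH mouse was below every control mouse, against 5.08% of all lncRNA genes.

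**Figure D1:**
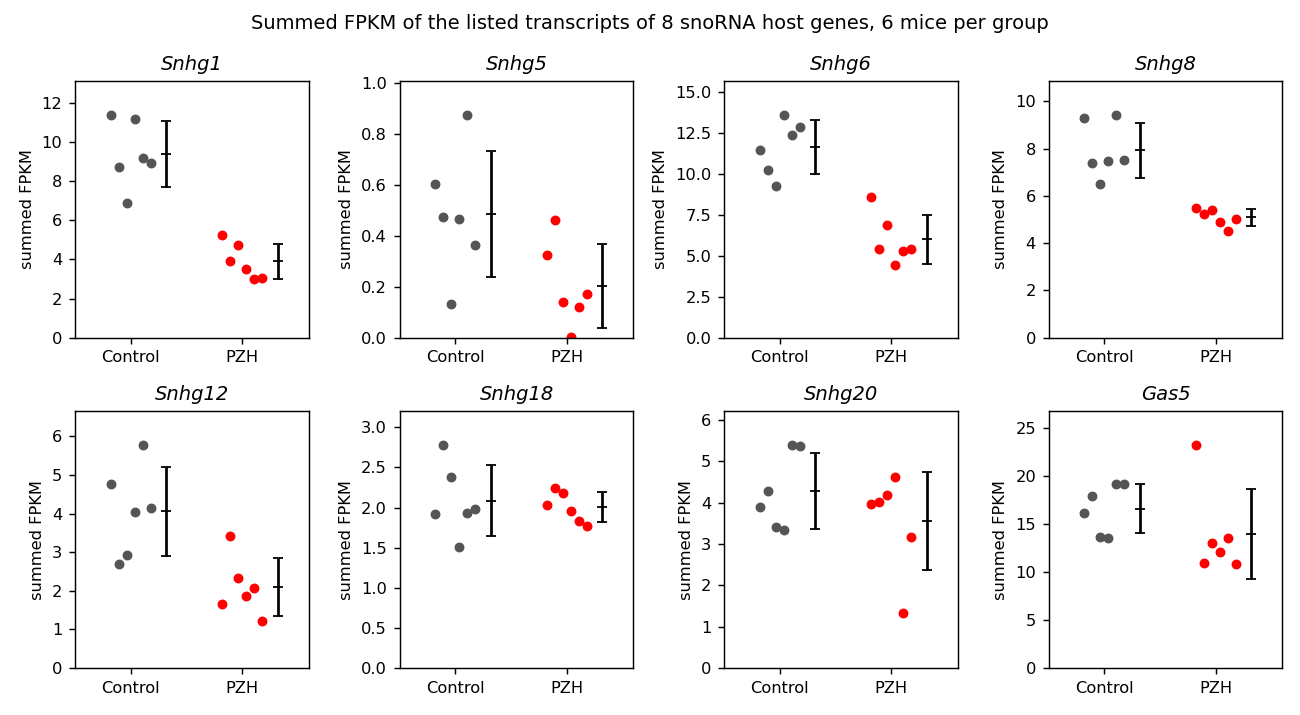
Summed FPKM (y axis, linear from 0) of the listed transcripts of each member in the 6 control mice (grey) and 6 PZH mice (red), with the mean and SD beside each group. The groups are separate in Snhg1, Snhg6 and Snhg8, and in Gas5 a single PZH mouse stands at 23.3.

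Snhg1 hosts snoRNAs of the box C/D kind and lies head to head with Slc3a2. It had 3.0, 3.71 and 5.22 FPKM (lowest, median and highest) in the PZH mice and 6.89, 9.07 and 11.4 in the control mice. Every PZH mouse was low and every control mouse high, with Control 3 the lowest of the controls. The mean was 3.90 ± 0.902 (SD, n = 6) against 9.38 ± 1.68 (SD, n = 6), so the PZH mean was 41.6% of the control mean. The log2 difference was -1.09 (95% interval -1.37 to -0.80, adjusted p = 7.68e-05). The study called single transcripts by a change of at least 2-fold with unadjusted P under 0.05. Applied here to gene sums on log2(FPKM + 1) in limma, only Snhg1 of the members met this rule. In the lower direction 0.767% of lncRNA genes met it. No single member transcript did on this scale, and the ratios of their means are given with the transcripts below. On the ratio of means, Snhg5, below 1 FPKM, was at 41.7% of its control mean (unadjusted p = 0.0235 in limma).

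Snhg6, the host of the box C/D snoRNA Snord87, had 4.43, 5.41 and 8.59 FPKM in the PZH mice and 9.23, 11.9 and 13.6 in the control mice. The highest PZH mouse, PZH 1, lay just below the lowest control mouse, Control 3. The PZH mean was 51.6% of the control mean. Snhg6 thus had a log2 difference of -0.87 (95% interval -1.15 to -0.58, adjusted p = 0.000373).

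Snhg8, the host of the box H/ACA snoRNA Snora24, had 4.53, 5.12 and 5.49 FPKM in the PZH mice and 6.50, 7.52 and 9.45 in the control mice. The PZH mice lay close together (coefficient of variation 7.04%) and all below the controls, which varied more (14.7%). The PZH mean was 64.2% of the control mean, and the log2 difference was -0.54 (95% interval -0.72 to -0.37, adjusted p = 0.000362).

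Snhg12, the host of Snora16a, Snora44, Snora61 and Snord99, had 1.21, 1.96 and 3.42 FPKM in the PZH mice and 2.70, 4.08 and 5.78 in the control mice. PZH 2 reached into the control range, above Control 2 and Control 3, and the other PZH mice lay below it. The PZH mean of Snhg12 was 51.5% of the control mean, close to the 51.6% of Snhg6. The log2 difference of Snhg12 was -0.71 (95% interval -1.09 to -0.34, adjusted p = 0.00896). At the lower level of Snhg12, adding 1 shrinks this difference more than that of Snhg6.

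Gas5 hosts 9 snoRNAs and its spliced RNA is a well known growth-arrest transcript that nonsense-mediated decay keeps low in growing cells. It had 10.8, 12.6 and 23.3 FPKM in the PZH mice and 13.6, 17.1 and 19.2 in the control mice. PZH 1 was above every control mouse and the other 5 PZH mice were below them all. The log2 difference was -0.27 (95% interval -0.62 to 0.08, adjusted p = 0.240). Without PZH 1 it was -0.42 (adjusted p = 0.0118), so the call on Gas5 turned on this 1 mouse.

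Snhg5, the host of Snord50a and Snord50b, had the lowest sum of the 8, from 1 listed transcript. It had 0.00137, 0.155 and 0.461 FPKM in the PZH mice and 0.131, 0.470 and 0.876 in the control mice. The ranges overlapped, with PZH 4 close to 0 and only PZH 4 and PZH 5 below the lowest control mouse. The log2 difference of -0.30 (95% interval -0.55 to -0.05) had an adjusted p of 0.0756. It passed the threshold without PZH 2 (-0.36, adjusted p = 0.0339) and without Control 3 (-0.37, adjusted p = 0.0205).

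Snhg20, which holds a scaRNA (a guide RNA of Cajal bodies), had 1.32, 3.99 and 4.61 FPKM in the PZH mice and 3.35, 4.09 and 5.4 in the control mice. PZH 5 stood low and the other PZH mice overlapped the controls or lay close to them. This gave a log2 difference of -0.25 (95% interval -0.67 to 0.17, adjusted p = 0.364).

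Snhg18, the host of Snord123, had 1.77, 1.99 and 2.24 FPKM in the PZH mice and 1.51, 1.95 and 2.78 in the control mice. All 6 PZH mice lay inside the control range. Their log2 difference was -0.03 (95% interval -0.22 to 0.16, adjusted p = 0.833), so a fall of the size seen in Snhg8 is outside its interval.

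**Figure D2:**
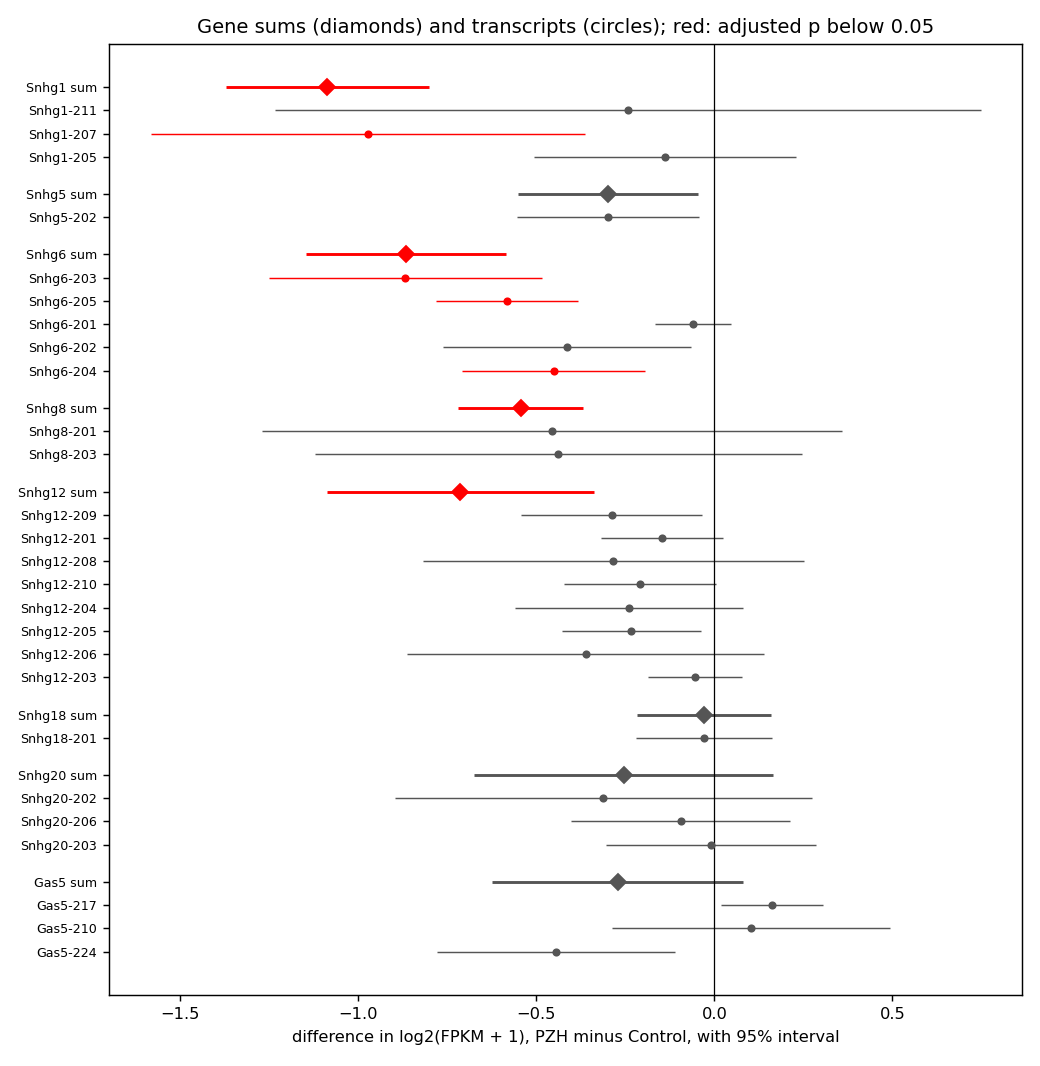
Difference in log2(FPKM + 1), PZH minus Control (x axis), with 95% intervals for the 8 gene sums (diamonds) and the 26 transcripts (circles), red where adjusted p was under 0.05. Snhg1 at -1.09, Snhg6, Snhg12 and Snhg8 are the called sums, and Snhg18 at -0.03 lies closest to 0.

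FPKM is per length, so the sums of listed transcripts can be set in order between genes. The order holds for listed transcripts only, because the listed part differed. Listed were 3 of 25 annotated transcripts of Gas5, 3 of 18 of Snhg1, 1 of 6 of Snhg5 and 3 of 7 of Snhg20. For Snhg8 it was 2 of 3, for Snhg12 8 of 10, for Snhg6 5 of 5 and for Snhg18 1 of 1. In the control group Gas5 was highest (mean 16.6 FPKM), followed by Snhg6 (11.6), Snhg1 (9.38), Snhg8 (7.94), Snhg20 (4.28), Snhg12 (4.06), Snhg18 (2.08) and Snhg5 (0.486). Neighbours in that order overlapped between mice except Snhg8 with Snhg20 and Snhg18 with Snhg5. In the PZH group the order was Gas5 (14.0), Snhg6 (6.01), Snhg8 (5.10), Snhg1 (3.90), Snhg20 (3.55), Snhg12 (2.09), Snhg18 (2.0) and Snhg5 (0.203). There the ranges of Gas5 and Snhg6 were separate, as were those of Snhg18 and Snhg5, and all other neighbours overlapped. Snhg1 was above Snhg8 in 5 of 6 control mice and below it in 6 of 6 PZH mice.

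The 8 members did not vary together closely from mouse to mouse within a group. Over their 28 pairs Pearson's r of the gene sums had a median of 0.475 in the 6 control mice (range -0.832 to 0.958) and of 0.467 in the 6 PZH mice (range -0.251 to 0.886). For the 6 pairs among Snhg1, Snhg6, Snhg8 and Snhg12 the median was 0.656 in the control mice and 0.463 in the PZH mice. These r values rest on 6 mice each and share the scaling of each library, and they are given as a description. Of 3884 protein-coding genes with a mean summed FPKM of at least 10, Dctn4 (r = 0.897), Ahctf1 (r = 0.894) and Uba2 (r = 0.891) followed the mean of the members most closely over the 12 mice after the group means were taken out. Without Control 3 and PZH 1, the mice farthest from the median of the members' mean, r was 0.885, 0.832 and 0.838. The 3 genes were picked for the highest r of the 3884 in these same mice, so a high r was bound to appear. Their likeness was not tested in other mice.

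At the level of single transcripts, 4 of the 26 fell (Snhg1-207, Snhg6-203, Snhg6-205 and Snhg6-204) and 0 rose, with 8.38% of all 1432 lncRNA transcripts called lower and 12.2% higher. Of the 26, 24 had a difference below 0, against 47% of all transcripts, though Snhg18-201 and Snhg20-203 turned positive under median-ratio scaling. The median was -0.26 against 0.01 over all transcripts. In 2 of the 26 (Snhg6-205 and Snhg6-204) every PZH mouse was below every control mouse, against 4.47% of all transcripts. None met the 2-fold rule in limma, which 0.419% of all transcripts met in the lower direction, although 10 had an unadjusted p under 0.05. Some of these 10 passed 2-fold on the ratio of means. Snhg1-207 was at 43.2% of its control mean, Snhg6-203 at 48.7%, Snhg6-204 at 39.1%, Snhg12-209 at 32.5% and Snhg5-202 at 41.7%. Gas5-217 was at 435%, with means of 0.164 against 0.0377 FPKM. The share of all transcripts past 2-fold on this measure was not counted. Of the 26, 9 had a mean of at least 1 FPKM, and 5 had 1 or more mice at 0.

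Snhg6 was listed with 5 transcripts, 3 of which fell. Snhg6-203, its most abundant transcript, had 1.83, 2.76 and 4.84 FPKM in the PZH mice and 4.77, 5.85 and 8.30 in the control mice (log2 difference -0.87, adjusted p = 0.00437). Only PZH 1 reached the lowest control mouse. Snhg6-205 had 1.40, 1.91 and 2.19 FPKM in the PZH mice and 2.58, 3.03 and 3.94 in the control mice (log2 difference -0.58, adjusted p = 0.000952). Snhg6-204 was lower still, at a mean of 0.312 FPKM against 0.796 (log2 difference -0.45, adjusted p = 0.0171), and was listed at 0 in PZH 3. Snhg6-202 and Snhg6-201 did not pass the test (adjusted p = 0.0873 and 0.422).

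The 2 listed transcripts of Snhg8 traded places between mice. Snhg8-201 ranged from 0.386 to 4.43 FPKM in the PZH mice and from 0.800 to 8.27 in the control mice, and Snhg8-203 from 1.0 to 4.15 and from 1.02 to 6.35. Control 1 and PZH 3 carried mostly Snhg8-201, at 89.0% and 81.6% of the sum, while Snhg8-203 was the larger in 9 of the other 10. Neither transcript passed the test alone (log2 differences -0.46 and -0.44, adjusted p = 0.425 and 0.355). Their sum did, as given above. The 2 annotated transcripts start apart, as their first 40 bases show.
Snhg8-201: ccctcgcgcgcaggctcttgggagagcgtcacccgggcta
Snhg8-203: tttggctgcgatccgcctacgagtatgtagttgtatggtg

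Snhg1-207 carried nearly the whole Snhg1 sum in most mice, with 1.52, 3.70 and 5.22 FPKM in the PZH mice and 2.83, 8.95 and 11.2 in the control mice. Control 2 was low and overlapped the PZH mice. The log2 difference was -0.97 (adjusted p = 0.0259), and the interval of -1.58 to -0.36 was wider than that of the gene sum. In Control 2, Snhg1-211 held 67.5% of the sum at 5.87 FPKM, and in PZH 6 it held 47.7% at 1.46 FPKM. It was listed at 0 in 9 of the other mice and at 0.0228 FPKM in PZH 4. The call on Snhg1-207 was lost without any one of PZH 5, PZH 6, Control 1, Control 4, Control 5 or Control 6 (adjusted p from 0.0504 to 0.0602), while the Snhg1 sum was called in each of these cases.

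The annotated start of Snhg1-207 lies inside the snoRNA Gm25855, and 60 of the 72 bases of Gm25855 (printed above) are in its first exon. Its first 40 bases are shown for comparison with the snoRNA.
Snhg1-207: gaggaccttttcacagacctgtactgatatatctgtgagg
Of the 26 listed transcripts, 9 had snoRNA or scaRNA bases in an exon, namely Snhg1-207, 7 of the 8 of Snhg12 and Snhg20-203. The other 17, among them every listed transcript of Snhg6, Snhg8, Snhg5, Snhg18 and Gas5, had none. Whether reads of these small RNAs counted toward the 9 transcripts was not tested.

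Snhg12 was listed with 8 transcripts, none of which passed the test, and all 8 had a difference below 0 (range -0.36 to -0.05). Snhg12-206, the 1 without snoRNA bases in an exon, had a PZH mean of 0.508 ± 0.361 FPKM and a control mean of 1.01 ± 0.715 (SD, n = 6 each, adjusted p = 0.297). Snhg12-205 had the lowest p of the 8, at 0.269 ± 0.0531 against 0.506 ± 0.246 FPKM (SD, n = 6 each, adjusted p = 0.087). The fall of Snhg12 was called in the sum over its transcripts and in none of them alone.

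Gas5 was listed with Gas5-224, Gas5-210 and Gas5-217. Gas5-224, the largest, had 6.68, 8.12 and 14.4 FPKM in the PZH mice and 9.93, 12.5 and 14.2 in the control mice. Again PZH 1 was above the controls and the other 5 PZH mice were below them. The log2 difference was -0.44 with an adjusted p of 0.0595. Gas5-210 had a difference of 0.10 (adjusted p = 0.731) and Gas5-217, at no more than 0.298 FPKM in any mouse, one of 0.16 (adjusted p = 0.10).

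**Figure D3:**
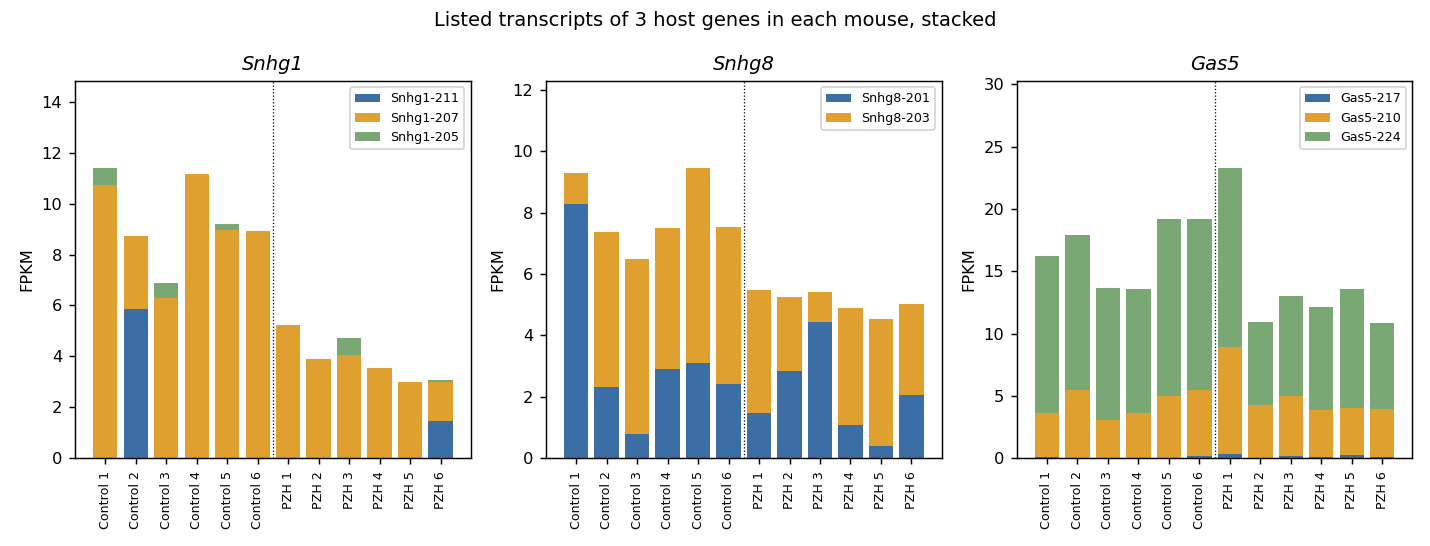
FPKM of each listed transcript of Snhg1, Snhg8 and Gas5, stacked (y axis, linear from 0), in each of the 12 mice. Snhg8-201 dominates in Control 1 and PZH 3, Snhg1-211 appears in Control 2 and PZH 6, and PZH 1 has the tallest Gas5 bar at 23.3.

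The share of a gene's sum that each transcript takes does not depend on the scaling of a library. For 24 transcripts of the 6 members with several listed transcripts, 0 shares were called in limma, against 1.05% of 571 shares tested, and 2 had an unadjusted p under 0.05. Both were of Gas5. The shares of a gene add up to the whole, and Gas5-217 took only 1.12% in PZH mice and 0.216% in control mice. The 2 shares thus nearly mirror each other and are not independent results. Gas5-224 took 64.4% ± 3.68 of the sum in PZH mice and 73.9% ± 3.24 in control mice (SD, n = 6 each), a difference of -9.52 percentage points (95% interval -14.2 to -4.87, adjusted p = 0.0708). Only PZH 5, at 70.1%, reached the lowest control share of 69.7%. Gas5-210 took 34.5% ± 4.02 and 25.8% ± 3.23, a difference of 8.62 points (adjusted p = 0.126). PZH 1, which stood apart in the level of Gas5, had a Gas5-224 share of 61.8%, inside the range of the other PZH mice. The shares of Snhg8-201 differed by -0.33 points with a wide interval of -31.6 to 31.0.

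Protein-coding neighbours of the members were read from the protein-coding table as gene sums. There 32.1% of 14188 genes were called lower and 12.7% higher. Slc3a2, the heavy chain of amino acid transporters of the cell surface, starts 106 bases from Snhg1 on the other strand. It had 19.3, 25 and 30.5 FPKM in the PZH mice and 62.2, 74.7 and 100.003 in the control mice. The groups were far apart, and the log2 difference was -1.59 (95% interval -1.89 to -1.29, adjusted p = 1.2e-05). Within the PZH group the mouse with the highest Snhg1, PZH 1, was among the lowest in Slc3a2.

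**Figure D4:**
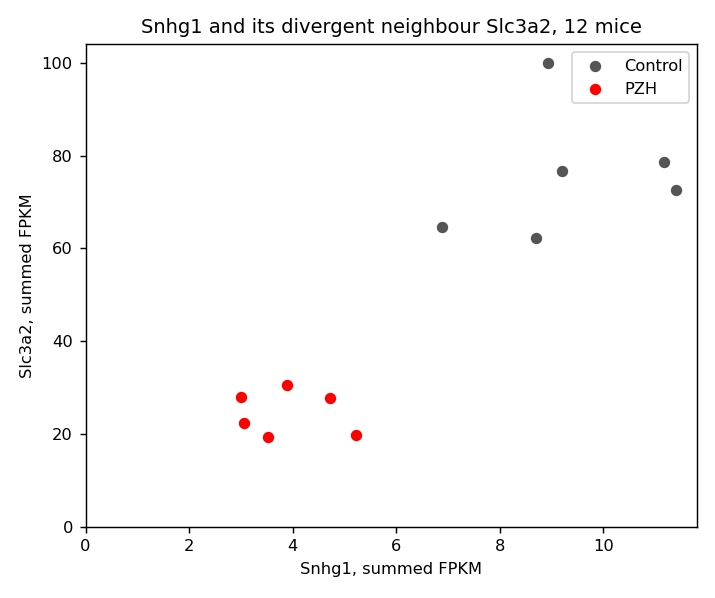
Summed FPKM of Snhg1 (x axis) and of Slc3a2 (y axis), both linear from 0, with 1 point per mouse. The 6 PZH mice (red) lie at the lower left, at or below 5.22 and 30.5 FPKM, and the 6 control mice (grey) at the upper right, at or above 6.89 and 62.2 FPKM.

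The neighbours of the members without a listed transcript fell as well. Rcc1, the nucleotide exchange factor of Ran, shares its locus and strand with Snhg3 and had a mean of 2.29 ± 0.337 FPKM (SD, n = 6) against 4.07 ± 0.615 (log2 difference -0.62, adjusted p = 0.000251). Its groups did not overlap. Znfx1, a zinc finger gene that starts 81 bases from Zfas1 on the other strand, had 8.72 ± 1.56 against 12.3 ± 2.23 FPKM (log2 difference -0.45, adjusted p = 0.0132), without overlap. Of all protein-coding genes, 17.9% had every PZH mouse below every control mouse.

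Snhg6, Snhg18 and Gas5 also have a protein-coding neighbour. Mcmdc2, which overlaps the end of Snhg6 on the other strand, had a log2 difference of -0.26 (adjusted p = 0.0496) at a mean of 0.229 against 0.458 FPKM. Sema5a, a semaphorin that starts 148 bases from Snhg18, had 0.15 (adjusted p = 0.0833). Zbtb37, which overlaps the start of Gas5 on the other strand, had 0.18 (95% interval 0.02 to 0.33, adjusted p = 0.0615). Neither Sema5a nor Zbtb37 passed the test.

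The genes of the snoRNP pathway were taken from lists. All 8 measured genes of the snoRNP core, the proteins that bind box C/D or box H/ACA snoRNAs, fell, with 32.1% of all protein-coding genes called lower. Nop56 had a log2 difference of -1.34 (adjusted p = 0.00546), Nop58 of -0.98 (adjusted p = 0.00107) and Fbl, the methyltransferase fibrillarin, of -0.70 (adjusted p = 3.98e-05). The groups overlapped in Nop56, where PZH 1 and PZH 2 lay inside the control range of 9.28 to 21.1 FPKM. The other PZH mice had 3.24 to 3.95 FPKM of Nop56. The box H/ACA proteins were among the 8 too, with Dkc1, the pseudouridine synthase, at -0.37 (adjusted p = 0.0181), a call that median-ratio scaling ended (-0.22, adjusted p = 0.169). The list median was -0.67, against -0.11 over all protein-coding genes.

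Of 11 genes of snoRNP assembly, 9 fell and 0 rose (median -0.41), beside 32.1% called lower and a median of -0.11 over all protein-coding genes. Ruvbl2 and Ruvbl1, the paired ATPases of the R2TP chaperone complex, had -0.80 (adjusted p = 1.74e-05) and -0.62 (adjusted p = 0.000139). Shq1, the chaperone of Dkc1, had -0.64 (adjusted p = 0.00786). Znhit3 and Coil did not pass the test.

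Of 10 genes of nonsense-mediated decay, 8 fell and 0 rose (median -0.42), beside 32.1% called lower and a median of -0.11 over all protein-coding genes. Smg5 (-0.73, adjusted p = 0.000759) helps recruit the decay enzymes, and Smg8 (-0.48, adjusted p = 0.000134) regulates the kinase Smg1. Upf1, the central helicase, had -0.45 (adjusted p = 0.0020). Upf3b and Smg6 did not pass.

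Of 9 genes that control the translation of TOP transcripts, 4 fell and 0 rose (median -0.33), beside 32.1% called lower and a median of -0.11 over all protein-coding genes. Eif4ebp1, the mTOR target that blocks Eif4e, had -1.06 (adjusted p = 4.12e-05). Mtor itself had -0.50 (adjusted p = 0.00152) and Larp1, which binds TOP tracts, -0.48 (adjusted p = 0.000416).

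Of 32 protein-coding genes that host snoRNAs, 14 fell and 0 rose (median -0.29), beside 32.1% called lower over all protein-coding genes. Nop56, Nop58 and Dkc1 are also on the snoRNP core list, so their calls are counted in both lists. Under the median-ratio scaling described below, 6 of the 32 were called lower beside 19.7% of all genes, so the share was then near that of the whole table. Nop56 and Nop58 led, as given above, together with the chaperone Hspa8 (-0.88, adjusted p = 0.0013). Rpl23a, chosen after its values were seen, had -1.78 and did not pass (adjusted p = 0.286). Reads of ribosomal protein genes are shared with their many pseudogenes, so those values are uncertain.

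Of 10 further lncRNA snoRNA hosts, 4 had a value, 3 in the lncRNA table and Snhg11 in the protein-coding table, and 1 fell, beside 10.7% of lncRNA genes called lower. Snhg17 fell (3.26 ± 0.887 against 4.59 ± 0.464 FPKM, SD, n = 6, log2 difference -0.41, adjusted p = 0.0159), and lost its call under median-ratio scaling (-0.26, adjusted p = 0.0707). Snhg10 had -0.25 (adjusted p = 0.0663), Dancr -0.34 (adjusted p = 0.434) and Snhg11 0.14 (adjusted p = 0.441).

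**Figure D5:**
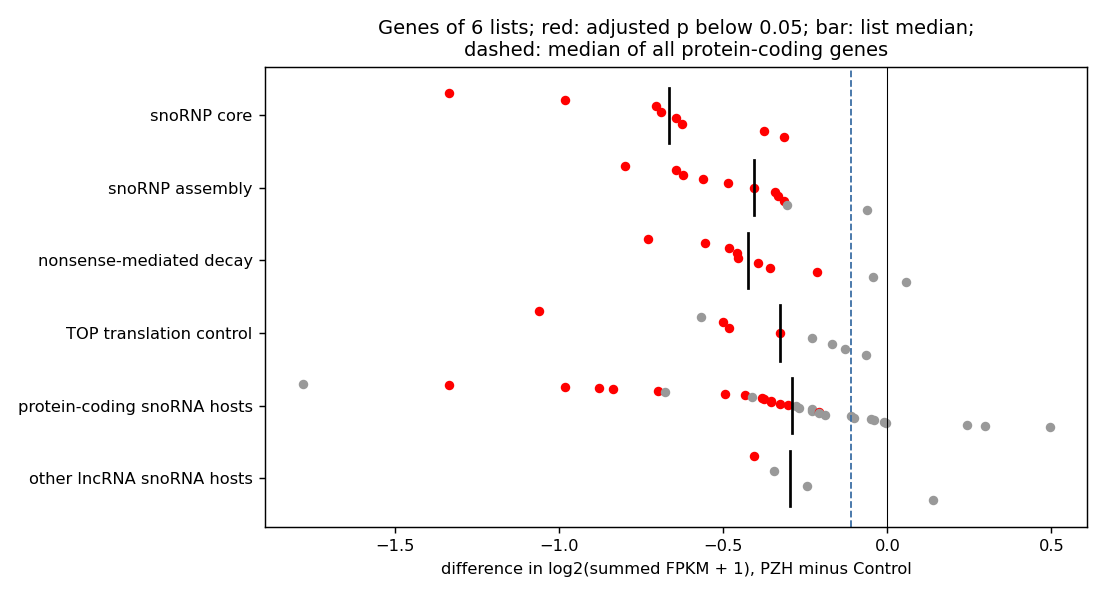
Difference in log2(summed FPKM + 1), PZH minus Control (x axis), of each measured gene of 6 lists, red where adjusted p was under 0.05, with the list median (bar) and the median of all protein-coding genes (dashed, -0.11). The snoRNP core lies farthest to the left with a median of -0.67, and every red point is below 0.

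The protein-coding table as a whole was shifted below 0 too, so the lists were also read after scaling. Scaling each mouse by its median-ratio factor (PZH 0.856 to 1.02, Control 1.04 to 1.12) moved the median of all protein-coding genes from -0.11 to -0.0049. It split their calls into 19.7% lower and 19.3% higher, and those of the lncRNA genes into 8.44% lower and 22.1% higher. With it, 6 of 8 core genes, 7 of 11 assembly genes, 6 of 10 decay genes, 3 of 9 TOP control genes, 6 of 32 protein-coding hosts and 0 of 4 other lncRNA hosts were called lower, and 0 higher. The list medians, in the same order, were then -0.50, -0.30, -0.25, -0.15, -0.11 and -0.22. The 4 members were called under it too, at -0.93 for Snhg1, -0.70 for Snhg6, -0.58 for Snhg12 and -0.38 for Snhg8, whereas Snhg18 turned to 0.09 without a call.

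Some cell type markers differed between the groups, beside 12.7% of all protein-coding genes called higher and 32.1% called lower. Of 6 hepatocyte markers 4 rose (Alb, Ttr, Cps1 and Tdo2), and their summed FPKM was 40833 to 57008 in PZH mice against 22953 to 36400 in control mice. All 5 proliferation markers rose (Mki67, Top2a, Cdk1, Ccnb1 and Birc5), with sums of 6.19 to 16.6 against 1.77 to 3.70. Of 7 stellate cell and myofibroblast markers Acta2 and Des fell and Col3a1 rose (sums 104 to 177 against 83.6 to 148). Of 5 Kupffer cell markers Marco fell and Clec4f and Vsig4 rose (sums 139 to 209 against 127 to 192), and of 5 markers of monocyte-derived macrophages Ly6c2 fell and Gpnmb and Trem2 rose (212 to 392 against 159 to 299). Of 5 endothelial markers Lyve1 and Pecam1 fell (70.1 to 85.4 against 74.0 to 84.6), and of 4 cholangiocyte markers Sox9 fell (5.4 to 7.6 against 11.9 to 18.8). Under median-ratio scaling Pecam1 (-0.12, adjusted p = 0.188) and Ly6c2 (-0.52, adjusted p = 0.0637) lost their calls, and Apoa1, Apob, Col1a2, Ms4a1, Kdr and Epcam were called higher (Kdr 0.35, adjusted p = 0.00304). Without it, the markers of neutrophils, T and NK cells and B cells had 0 calls among 4 each, and no marker was at 0 in all mice. The lncRNA AY036118 had 1613 to 12850 FPKM in PZH mice against 765 to 4969 in control mice. The part of cell makeup, of AY036118 and of the scaling in the fall of the 4 members was not tested beyond the scaling values given here.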

How the data were processed

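Total RNA of 12 mouse livers, 6 per group, was depleted of ribosomal RNA and sequenced in strand-specific libraries by the authors. Per the labels and the study's methods, the authors trimmed reads with Trimmomatic, mapped them to GRCm38 with HISAT2 and estimated transcripts with StringTie. The authors deposited FPKM per transcript and mouse, for 1432 lncRNA and 29883 protein-coding transcripts, and all 12 columns of both tables were used. GENCODE M21 held 1431 and 29876 of these transcripts. Every listed lncRNA transcript had an FPKM sum of about 1 or more over the 12 mice, and 1275 of 1432 were of type lincRNA. The 8 listed members have 75 annotated transcripts, 37 of type lincRNA, and no retained-intron transcript was listed, so a gene sum covers the 26 listed transcripts only.

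Values were put on log2(FPKM + 1) with no filter and compared in R 4.3.3 with limma 3.58.1, over all rows of a table, with Benjamini-Hochberg adjustment. Gene sums and transcript shares (percent of the sum, for transcripts of genes with several listed transcripts) were fitted likewise. Tables and figures were made in Python 3.11.15 (matplotlib 3.10.9, scipy 1.17.1, numpy 2.4.6 and pandas 2.3.3). The procedure was tested on simulated data. Sequences came from RefSeq start windows (250 bases before to 50 after each start) and GENCODE M21 transcripts.

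Members, lists and markers were chosen with earlier results of these data known. Named were all members and their transcripts, the 3 genes of each pathway list with the largest called difference, neighbours starting within 2 kb on the other strand or sharing the locus, and the 3 genes most like the members' mean. Of the genes this rule gave, 1 is not reported here. Other genes named beside a count, Dkc1, Upf1 and the uncalled ones among them, were chosen after their values were seen.

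FPKM holds no read counts. On the best-fitting step of 1 fragment, at most 26.7% of the low values of a mouse lay on whole multiples (within 0.03 of a step), so counts were not recovered, the depth behind each value is unknown, and the spread between mice gives the precision. Nothing shows whether the replicate numbers in the labels pair mice across groups. Same-numbered mice deviated together with r from -0.016 to 0.028, so they were not paired. Alternatives left out each mouse in turn, added the replicate number as a block, scaled by median-ratio factors or to an equal FPKM sum, filtered at a mean FPKM of 1 or more, lowered the pseudocount to 0.1, fitted both tables at once, or modelled a mean-variance trend. The proteomics of the study was not analysed here.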

Additional observations from a re-analysis of the deposited data

Results flagged for a closer look

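In each of the following, the highest or lowest of 6 mice stood apart from the other 5 by a gap that, over the group's whole range, exceeds Dixon's 95% critical value. Chance alone flags about 1 in 20 groups, and transcripts of a gene share their mice.

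PZH 1 stood apart in Gas5, at 23.3 FPKM for the sum against 10.8 to 13.5 in the other PZH mice. It was high in both of the abundant transcripts, at 14.4 FPKM for Gas5-224 (6.68 to 9.49 in the others) and 8.60 FPKM for Gas5-210 (3.79 to 4.79). The same mouse had the largest FPKM sum over both tables, 380798 against 343146 to 359551 in the other PZH mice. Its median-ratio factor, 0.856, was the lowest of the 12 mice, so that scaling raises its values. Whether either bears on its Gas5 level was not tested.

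Control 1 stood apart in Snhg8, in opposite directions for its transcripts. Snhg8-201 was at 8.27 FPKM there (0.800 to 3.09 in the other controls) and Snhg8-203 at 1.02 FPKM (4.61 to 6.35).

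Snhg1-211 was at 5.87 FPKM in Control 2 and listed at 0 in the other controls, and at 1.46 FPKM in PZH 6 with 0 to 0.0228 in the other PZH mice. Snhg1-205 was at 0.682 FPKM in PZH 3 (0 to 0.0833 in the others). Snhg6-204 was at 1.42 FPKM in Control 4 (0.561 to 0.743 in the others).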

How the results depend on the processing

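The calls on the gene sums of Snhg1, Snhg6, Snhg12 and Snhg8 held under all 7 whole-table alternatives and with each mouse left out. With 1 mouse left out, the log2 difference ran from -1.16 to -1.03 for Snhg1, -0.96 to -0.80 for Snhg6, -0.82 to -0.62 for Snhg12 and -0.59 to -0.50 for Snhg8. Of 151 alternative values of gene sums, 146 kept direction and side of the threshold and 2 changed sign without a call (Snhg18 under median-ratio scaling, 0.09, and without Control 2, 0.03). The other 3 gained a call, which were Gas5 without PZH 1 and Snhg5 without PZH 2 or Control 3. Of 477 values of transcripts, 450 kept both, 12 changed sign without a call, 7 lost a call (all Snhg1-207, which without a lone mouse is given above and under median-ratio scaling had -0.82, adjusted p = 0.0537) and 8 gained one. Gas5-224 gained its call with a mean FPKM of at least 1 (adjusted p = 0.0431), at an equal FPKM sum (0.0237) and without PZH 1 (0.00329). Snhg5-202 gained it without PZH 2 (0.0434) or Control 3 (0.0266), Snhg8-203 without Control 1 (-0.71, 0.0426) and Snhg12-209 without Control 2 (0.0213). The count of transcripts called higher ran from 0 to 1 with 1 mouse left out (Gas5-217 without PZH 2, 0.21, adjusted p = 0.0264). The count of shares called lower was 1 with a mean FPKM of at least 1 (Gas5-224, adjusted p = 0.0492), and ran from 0 to 1 with 1 mouse left out (Gas5-224 without PZH 5, -10.7 points, adjusted p = 0.0352). Of the protein-coding genes of the lists, 40 were called lower, 26 under median-ratio scaling and 36 with the replicate block. The count called higher ran from 0 to 1 with 1 mouse left out (Smg6 without PZH 1, 0.17, adjusted p = 0.0328). With the replicate number as a block, 4 member sums and 4 transcripts were called, as without it, and 1 of 6 numbers was the best match of its mice. The cause of these changes was not tested. Low transcripts limit the rest, since 17 of the 26 had a mean under 1 FPKM.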
